A study of Arabidopsis thaliana with 15 samples.

Results

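The ABI5-binding proteins AFP1 (AT1G69260), AFP2 (AT1G13740), AFP3 (AT3G29575) and AFP4 (AT3G02140, also TMAC2) form a small plant family. Their 4 genes were followed in Arabidopsis seeds held in abscisic acid (ABA), the hormone that arrests germination. They were chosen by locus, and all 4 had a probe set among the 27981 loci measured. Whole germinated Col-0 seeds, picked when the radicle had just come through, were the starting material. After 72 h of cold (4 °C) the seeds had germinated under continuous white light (22 °C), and they were then moved to 10 µM ABA in darkness at 20 °C. Groups of 3 arrays were taken at 0, 2, 12, 24 and 72 h, each array from its own pool of seeds harvested in bulk from at least 2 plants. The 0 h seeds are the background of every comparison, and no seeds incubated in the absence of ABA were analysed here. A difference from 0 h therefore holds ABA, elapsed time, darkness and the change of temperature together, which cannot be told apart.

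ABI5 is a basic leucine zipper (bZIP) transcription factor that switches on late seed maturation genes and blocks seedling growth when ABA is present. AFP proteins bind ABI5 and related group A bZIP factors. An EAR motif, a short repression motif, lets them recruit the TOPLESS co-repressors and, through these, histone deacetylases. They dampen ABA responses during germination, AFP1 has been linked to the breakdown of ABI5 by the proteasome, and genes of the family are themselves known to be induced by ABA. NINJA, the related adaptor that ties JAZ repressors of jasmonate signalling to TOPLESS, belongs to the wider family.

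All values are log2 signals from the authors' RMA processing, so a difference of 1 is a doubling, and no value was tested against background. One array stood apart. Replicate 2 of 2 h correlated with the other 2 h arrays at r of 0.889 and 0.901 over all loci, against 0.986 to 0.995 between other arrays of 1 time, and values of the 4 genes and counts of the gene lists that it changed are given with and without it. The 3 endosperm markers summed to 3539 on that array (linear signal) against 814 and 1758 on the other 2 h arrays, and 3 storage and oil body markers to 4906 against 705 and 1283. The sum of 6 root markers was 593 there against 599 and 491. Markers of floral organs, which were not sampled, also summed higher there, to 42 against 24 and 23. The interquartile range of that array was 2.89, against 3.73 to 4.12 on the other 14 arrays. The cause of its differences was not tested. By mean level at 0 h the root markers SCR and SHR stood at the 88.1st and 66.2nd percentile of all loci, and endosperm EPR1 at the 95.7th. PLT1 stood lower, at the 40.4th, and endosperm ZOU at the 25.5th. Markers of floral organs, which were not sampled, stood between the 4.5th and the 29.5th.

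Over the course AFP1, AFP2 and AFP3 rose and stayed up, while AFP4 did not rise. By the moderated F test in limma over all 15 arrays, AFP1 (adjusted p = 5.91e-06), AFP2 (9.91e-06) and AFP3 (9.55e-05) changed, as did 44.0% of all loci. AFP4 was not called (adjusted p = 0.390), but was called without 2 h replicate 2 (adjusted p = 7.31e-05, with 58.7% of loci called). With all arrays, 3 of the 4 genes rose against 0 h at each later time and none was called as falling. The counts were the same at an unadjusted p under 0.05 in limma. The share of all loci called in either direction was 15.8% at 2 h, 25% at 12 h, 36.6% at 24 h and 38.5% at 72 h, and the share called up was 6.95%, 13.3%, 17.4% and 18.4%. The family median was 2.42 at 2 h, 1.69 at 12 h, 1.90 at 24 h and 2.28 at 72 h, where the median of all loci lay between -0.04 and 0.11. Without 2 h replicate 2, 3 genes again rose at each time, and the 2 h median was 2.82. AFP4 was then called as falling at 12 h and 24 h, where 19.9% and 25.6% of all loci were called down. In whole seeds a change in the share of a tissue and a change of RNA per cell cannot be told apart. The summed endosperm markers were also higher at 12 h (2037 to 2291) and 24 h (1513 to 1803) than at 0 h (667 to 777). Their sum was near the 0 h level at 72 h (768 to 945), with 1 of the 3 markers called up at each time. Without 2 h replicate 2, 2 of the 3 were called up at 12 h and 24 h (40.6% and 49.1% of all loci called). The markers did not return together. EPR1 had a mean log2 value of 8.75 at 72 h against 9.32 at 0 h. MAN7 was at 8.62 against 5.92, and ZOU at 3.45 against 3.19. The storage and oil body markers summed to 125 to 174 at 0 h and 3257 to 3545 at 12 h. They summed to 4491 to 5528 at 24 h and 1480 to 2101 at 72 h. Of these, 2 of 3 were called up at each time, or 3 of 3 at 12 h without 2 h replicate 2. The part of tissue share in these sums and in the results was not tested.

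**Figure D1:**
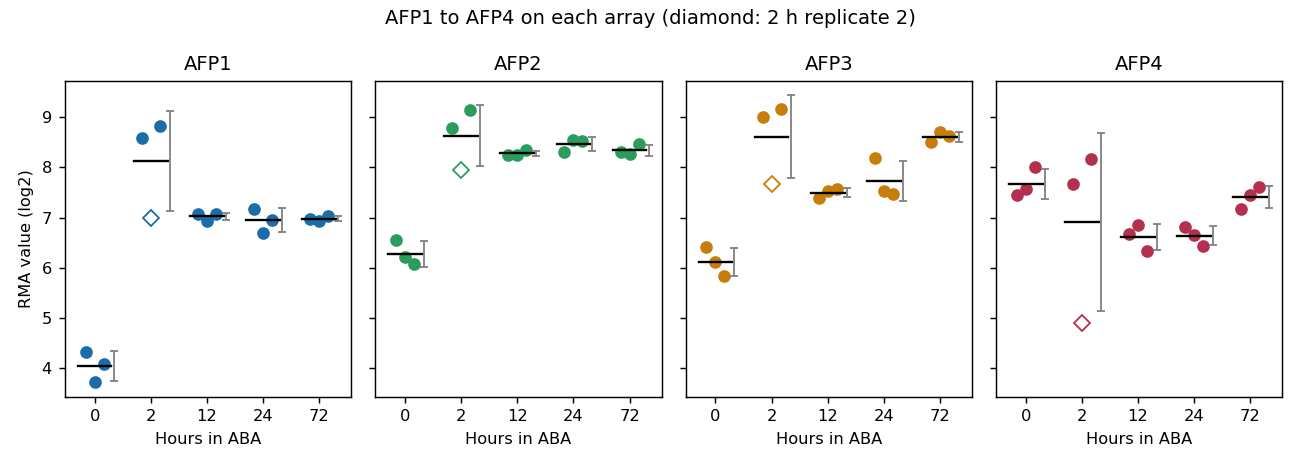
RMA values (log2, vertical axis) of AFP1 to AFP4 on each of 15 arrays against hours in ABA. Points are arrays, the open diamond is 2 h replicate 2, black lines are means and grey bars span 1 SD on either side (n = 3). AFP1, AFP2 and AFP3 lie above all of their 0 h arrays at every later time, and AFP4 has its lowest value, 4.90, on 2 h replicate 2.

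AFP1, the founding member of the family, had the largest fitted rise of the 4 at each time. Its 0 h arrays read 4.33, 3.72 and 4.09, near the 37.9th percentile of all loci. After 2 h they read 8.58, 6.99 and 8.82. The 12 h values were 7.07, 6.93 and 7.06, those at 24 h were 7.18, 6.70 and 6.95, and those at 72 h were 6.97, 6.93 and 7.03. Every later array thus lay above every 0 h array, and the arrays from 12 h on kept within a narrow band. The rise in limma was 4.09 ± 0.35 at 2 h (SE of the fitted difference, n = 3 per time, adjusted p = 1.69e-06), or 4.66 ± 0.17 without 2 h replicate 2. It was 2.98 ± 0.35 at 12 h (adjusted p = 2.42e-05), 2.90 at 24 h and 2.93 at 72 h.

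The 2 h level of AFP1 was its highest. From there AFP1 was lower by 24 h (-1.19 ± 0.35, adjusted p = 0.0269, 20.8% of loci called) and by 72 h (-1.15 ± 0.35, adjusted p = 0.0233, 28.7% called). The drop already stood at -1.11 by 12 h without being called (adjusted p = 0.0822, 4.89% called). Without 2 h replicate 2 it was called at 12 h (-1.68 ± 0.17, adjusted p = 2.30e-05, 15.3% called), at 24 h (-1.76, 33.2% called) and at 72 h (-1.73, 39.0% called). The calls at 24 h and 72 h were lost without 2 h replicate 1 (adjusted p = 0.0831 and 0.0739) or 2 h replicate 3 (0.0796 and 0.0760). They were also lost at 24 h without 24 h replicate 2 or 3 (0.105 and 0.0720), and at 72 h without 72 h replicate 1, 2 or 3 (0.0621, 0.0625 and 0.0561). Levels at 12, 24 and 72 h did not differ beyond their spread, with differences between -0.08 and 0.03.

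AFP2, which binds ABI5 and acts with TOPLESS co-repressors, rose to a plateau. Its values were 6.56, 6.21 and 6.07 at 0 h and 8.78, 7.96 and 9.14 at 2 h. Later arrays read 8.24, 8.24 and 8.34 at 12 h, 8.30, 8.55 and 8.53 at 24 h, and 8.30, 8.26 and 8.46 at 72 h. No later array overlapped the 0 h arrays, and the 4 later times overlapped one another. Rises of 2.35 ± 0.23 at 2 h (adjusted p = 7.84e-06), 2.00 at 12 h, 2.19 at 24 h and 2.06 at 72 h (adjusted p = 9.38e-06) were called, the 2 h rise at 2.68 ± 0.15 without 2 h replicate 2. No later time differed from 2 h with all arrays (differences from -0.35 to -0.16). Without that array AFP2 was lower than at 2 h by 12 h (-0.68 ± 0.15, adjusted p = 0.00731), 24 h (-0.50, adjusted p = 0.0195) and 72 h (-0.62, adjusted p = 0.00430). Among 12, 24 and 72 h the differences were between -0.12 and 0.19 and none was called.

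AFP3 was raised at every time, with lower means at 12 h and 24 h than at 2 h and 72 h. It was measured by 3 probe sets, of which the pair with the higher mean hold identical values and were used as 1. At 0 h it read 6.40, 6.11 and 5.83, and at 2 h 9.00, 7.66 and 9.16. The 12 h arrays read 7.39, 7.52 and 7.57, the 24 h arrays 8.19, 7.53 and 7.47, and the 72 h arrays 8.50, 8.69 and 8.62. All arrays at 72 h lay above all at 12 h and 24 h, and overlapped those at 2 h through 2 h replicate 2, the other 2 h arrays being higher. Against 0 h AFP3 rose by 2.49 ± 0.32 at 2 h (adjusted p = 7.84e-05), or 2.97 ± 0.20 without 2 h replicate 2. It was up by 1.38 ± 0.32 at 12 h (adjusted p = 0.00508), 1.62 at 24 h (adjusted p = 0.00104) and 2.49 at 72 h (adjusted p = 2.64e-05).

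Between 12 h and 72 h AFP3 rose by 1.11 ± 0.32 (adjusted p = 0.0235, 20.0% of loci called). That call was lost on leaving out any 1 of the 6 arrays compared: without 12 h replicate 1, 2 or 3 (adjusted p = 0.0776, 0.0636 and 0.0562) and without 72 h replicate 1, 2 or 3 (0.0530, 0.0762 and 0.0675). The step from 24 h to 72 h, 0.87 ± 0.32, was not called with all arrays (adjusted p = 0.189, 3.32% called) and was called without 2 h replicate 2 (adjusted p = 0.00483, 12.8% called). The drop from 2 h to 12 h stood at -1.11 ± 0.32 (adjusted p = 0.0604) and at -1.59 ± 0.20 (adjusted p = 1.32e-04) without that array. From 2 h to 24 h it was -0.88 (adjusted p = 0.0660), or -1.35 (adjusted p = 1.09e-04) without it. The difference of 72 h from 2 h was 0.00 ± 0.32 (adjusted p = 0.994), or -0.48 ± 0.20 without 2 h replicate 2, not called (adjusted p = 0.0738) but with all 72 h arrays below both remaining 2 h arrays. Levels at 12 h and 24 h did not differ beyond their spread (0.24, 6.56% of loci called).

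AFP4, whose overexpression is known to weaken ABA responses, was the only one of the 4 not to rise. The 0 h arrays read 7.44, 7.57 and 8.01, at the 82.9th percentile of all loci. The 2 h arrays read 7.67, 4.90 and 8.17. Values at 12 h were 6.67, 6.84 and 6.33, at 24 h 6.81, 6.66 and 6.44, and at 72 h 7.16, 7.44 and 7.60. All 12 h and 24 h arrays lay below all 0 h and all 72 h arrays, while 72 h overlapped 0 h. At 2 h the outlying array was the lowest of the 15, and the other 2 h arrays lay within or just above the range of 0 h.

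Replicate 2 of 2 h was 3.02 below the mean of the other 2 h arrays for AFP4, and only 0.243% of loci lay as far down on that array. Its distance was -1.72 for AFP1, -1.0 for AFP2 and -1.42 for AFP3, where 90% of loci lay between -1.51 and 1.54. With all arrays AFP4 stood at -0.76 ± 0.58 at 2 h (adjusted p = 0.352), and without that array at 0.25 ± 0.21 (adjusted p = 0.518, 19.1% of loci called). The 2 h direction of AFP4 therefore turned on 1 array.

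At 12 h and 24 h AFP4 stood at -1.06 ± 0.58 and -1.04 ± 0.58 against 0 h, not called with all arrays (adjusted p = 0.223 and 0.199). The spread of a gene is estimated over all 5 times, and the 2 h arrays enter it. Without 2 h replicate 2 the differences were the same, their SE was 0.19, and both were called (adjusted p = 3.51e-04 at 12 h, with 40.6% of loci called and 19.9% called down, and 2.72e-04 at 24 h, with 49.1% called and 25.6% called down). They were also called when only the 6 arrays compared were fitted (adjusted p = 0.00154 and 7.40e-04, with 40.7% and 48.5% of loci called). By 72 h AFP4 stood at -0.27 ± 0.58 against 0 h (adjusted p = 0.803). The differences of 72 h from 12 h (0.79) and from 24 h (0.77) were not called with all arrays (adjusted p = 0.440 and 0.728). Leaving out 2 h replicate 2 called both (adjusted p = 0.00409, 35.1% of loci called, and 0.0146), and the drops from 2 h to 12 h (-1.30) and 24 h (-1.28) were called without it as well.

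**Figure D2:**
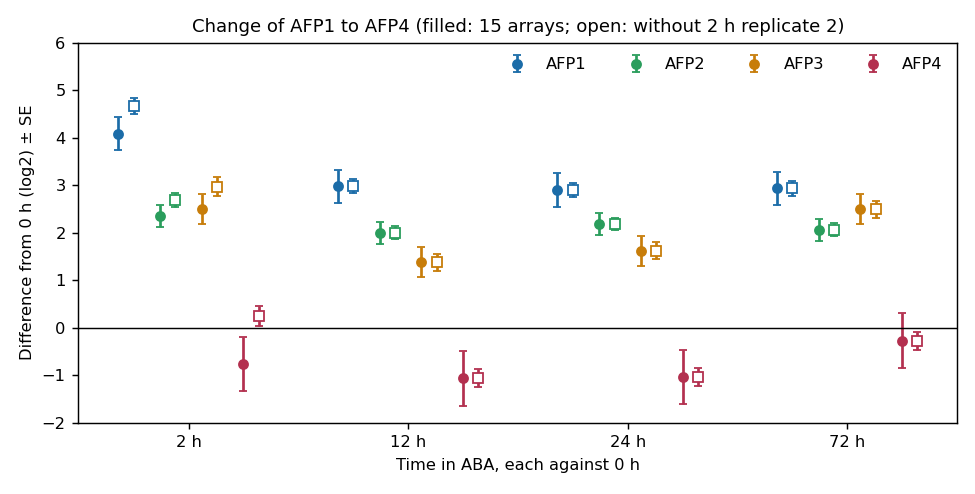
Difference from 0 h (log2, vertical axis) of AFP1 to AFP4 at 2, 12, 24 and 72 h, with SE bars from limma. Filled circles use all 15 arrays and open squares leave out 2 h replicate 2. AFP1 to AFP3 lie above 0 at every time in both fits, and AFP4 is at -0.76 or 0.25 at 2 h and near -1.0 at 12 h and 24 h.

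The responses of the 4 genes were compared in pairs, as the difference between 2 genes within each array. Over 6 pairs at 4 times, 24 values were computed. In 21 of them all 3 later arrays lay beyond all 3 arrays of 0 h, which gives a two-sided exact permutation p of 0.1, the smallest that 3 against 3 arrays allow (0.114 adjusted over the 24). No pair can therefore pass a threshold of 0.05 by this test. How often other pairs of loci separate in this way was not computed. The 24 values share the 4 genes and the 0 h arrays, so they are not 24 separate results. The change of AFP1 exceeded that of AFP4 by 4.85 ± 0.51 at 2 h (4.41 without 2 h replicate 2), 4.04 ± 0.32 at 12 h, 3.94 ± 0.29 at 24 h and 3.20 ± 0.28 at 72 h. AFP2 exceeded AFP4 by 2.33 to 3.22 and AFP3 exceeded it by 2.44 to 3.26.

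Among the 3 genes that rose, the gaps had these values. The change of AFP1 exceeded that of AFP2 by 1.74 ± 0.28 at 2 h and by 0.71 to 0.98 later. Its lead over AFP3 was 1.59 ± 0.21 at 2 h, 1.60 ± 0.20 at 12 h, 1.28 ± 0.24 at 24 h and 0.44 ± 0.20 at 72 h, the last with overlapping arrays (exact permutation p = 0.200) that no longer overlapped without 0 h replicate 3 (0.61). AFP2 minus AFP3 was -0.15 ± 0.15 at 2 h with overlapping arrays (exact permutation p = 0.500), and -0.28 without 2 h replicate 2, when the arrays no longer overlapped (exact permutation p = 0.1). At 24 h it was 0.57 ± 0.31 with overlap (exact permutation p = 0.300), and 0.88 without 24 h replicate 1, again with no overlap (exact permutation p = 0.1). At 12 h the difference was 0.62 ± 0.06 and at 72 h -0.43 ± 0.10, both without overlap. Each of these values shares the 0 h arrays.

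**Figure D3:**
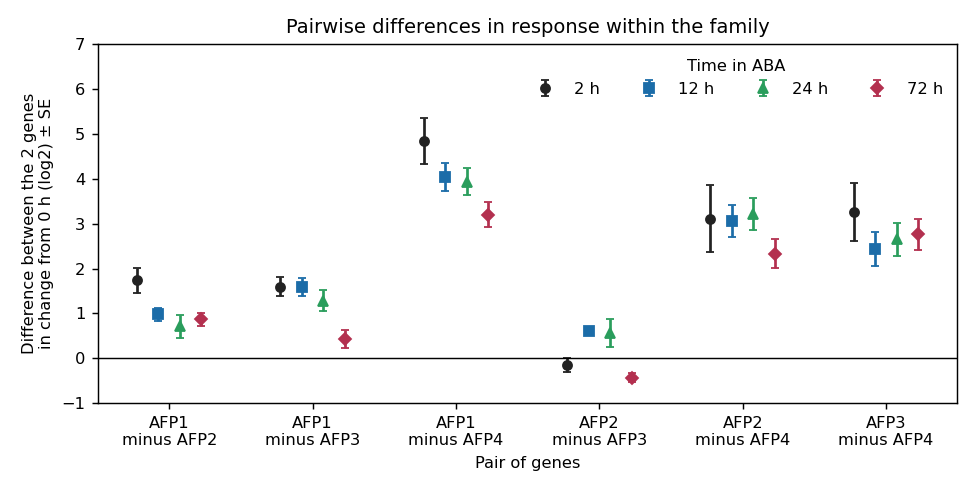
Difference between 2 genes in their change from 0 h (log2, vertical axis) for the 6 pairs, with SE bars (n = 3 arrays per time). The 3 pairs with AFP4 lie between 2.33 and 4.85, and AFP2 minus AFP3 is at 0.62 at 12 h and at -0.43 at 72 h.

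NINJA changed less and later. Its time means were 7.38 at 0 h, 7.58 at 2 h, 7.78 at 12 h, 8.10 at 24 h and 8.20 at 72 h, with SDs of 0.06 to 0.20. It was not called at 2 h (0.20 ± 0.13, adjusted p = 0.287) and rose at 12 h (0.40 ± 0.13, adjusted p = 0.0318), 24 h (0.72, adjusted p = 4.76e-04) and 72 h (0.82, adjusted p = 1.42e-04).

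Genes of group A bZIP factors, the group of ABI5, were called up in 4 of 10 cases at 2 h and 12 h. Of the 10, 5 were called up at 24 h and 7 at 72 h, with no fall. Of all loci 6.95%, 13.3%, 17.4% and 18.4% were called up at these times. Leaving out 2 h replicate 2 gave 5, 5, 8 and 7 rises (19.1%, 40.6%, 49.1% and 51.2% of loci called in either direction), and 1 fall, ABF2 at 24 h, named after its values were seen. The list median was 0.47 at 2 h and 1.57 at 72 h, where all loci had medians of 0.11 and -0.02. ABI5 itself read 5.89, 5.65 and 5.39 at 0 h and 9.82, 9.97 and 10.13 at 2 h. On 2 h replicate 2 ABI5 thus lay between the other 2 h arrays, while AFP1 to AFP4 each had their lowest 2 h value there. For AFP2 (-1.0) and AFP3 (-1.42) that distance was within the 5th to 95th percentile of loci (-1.51 to 1.54). ABI5 rose by 4.33 ± 0.14 at 2 h (adjusted p = 4.83e-11) and by 3.83 to 4.11 later. EEL, a bZIP factor of late seed maturation, rose by 2.40 ± 0.22 at 2 h and 4.90 at 24 h. ABF3, a bZIP factor of drought and ABA responses, rose by 1.60 ± 0.43 at 2 h (adjusted p = 0.0210), where replicate 2 was low (6.27 against 8.04 and 8.63), and by 2.67 ± 0.43 at 72 h. AREB3, taken after its values were seen as the remaining factor called at 2 h, rose by 0.73 ± 0.15 then and by 1.83 at 72 h. DPBF2, ABF2 and BZIP15 were called at no time with all arrays.

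On the co-repressor side, limma called none of the 5 TOPLESS genes at 2 h (15.8% of all loci called) or 12 h (25%). At an unadjusted p under 0.05 in limma the counts were 0 and 1. At 24 h and at 72 h 1 gene was called up, where 36.6% and 38.5% of all loci were called. That gene was TPR1, a TOPLESS-related gene (0.36 ± 0.11, adjusted p = 0.0224, and 0.47, adjusted p = 0.00396). TPL itself stayed within -0.04 to 0.20 of its 0 h level without a call. Leaving out 2 h replicate 2 gave 2 rises at 2 h, 1 at 12 h and 2 at each of 24 h and 72 h. Of all loci 19.1%, 40.6%, 49.1% and 51.2% were called at these times without that array. The rises at 2 h were then TPR2 (0.61 ± 0.11) and TPR3 (0.45 ± 0.13), that at 12 h was TPR1 (0.31 ± 0.09), and TPR2 joined TPR1 at 24 h (0.46) and 72 h (0.37). TPR2 and TPR3 were named after their values were seen.

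The list of histone deacetylation held 8 genes, 7 for deacetylases and SAP18 for a partner of such complexes. None was called at 2 h by limma (1 fall at an unadjusted p under 0.05), where 15.8% of all loci were called. There were 2 falls at 12 h (25% of all loci called), 1 rise and 3 falls at 24 h (36.6%), and 1 rise and 4 falls at 72 h (38.5%), where the median was -0.38. Leaving out 2 h replicate 2 gave no call at 2 h (19.1% of loci called) and 1 rise and 3 falls at 12 h (40.6%). Rises and falls were then 2 and 5 at 24 h (49.1%) and 1 and 4 at 72 h (51.2%). HDA19, the deacetylase that works with TOPLESS, rose by 0.71 ± 0.11 at 72 h (adjusted p = 1.64e-04). The plant-specific HD2 genes HD2D and HD2A fell, with HD2D at -1.46 ± 0.24 at 24 h (adjusted p = 2.61e-04) and HD2A at -1.34 ± 0.20 at 72 h (adjusted p = 1.10e-04). The other falls at 72 h were HD2B (-0.58) and SAP18 (-0.38). Calls made at 12 h or 24 h only without 2 h replicate 2 were rises of HD2C (0.28 and 0.25) and falls of HD2B at 12 h (-0.35), and of HDA9 (-0.52) and SAP18 (-0.29) at 24 h. HD2B, HD2C, HDA9 and SAP18 were named after their values were seen.

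Genes for the turnover of ABI5 protein were called up in 1 of 10 cases at 2 h and in 3 at 12, 24 and 72 h, with 1 fall at 24 h and 72 h. These 1, 3, 4 and 4 calls of 10 lie near the shares of all loci, 15.8%, 25%, 36.6% and 38.5%. There were, without 2 h replicate 2, 1 rise at 2 h and 4 rises and 1 fall at each later time, where 19.1%, 40.6%, 49.1% and 51.2% of loci were called. KEG, the E3 ligase that keeps ABI5 low, rose by 0.78 ± 0.14 at 12 h and 1.07 ± 0.14 at 72 h (adjusted p = 2.75e-05). At 2 h KEG stood at 0.40 (adjusted p = 0.0644), or 0.55 without 2 h replicate 2 (adjusted p = 0.00163), when DDB1A was not called. DDB1A, an adaptor of CUL4 ligases, rose by 0.45 ± 0.14 at 2 h (adjusted p = 0.0439) and 0.76 at 72 h, and CUL4, named after its values were seen, by 0.65 at 72 h. The fall was RPN10, a ubiquitin receptor of the proteasome, at -1.06 ± 0.22 at 72 h (adjusted p = 0.00135).

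Of 10 genes known as ABI5 targets, 5 rose and 1 fell at 2 h, 7 and 1 at 12 h, 8 and 1 at 24 h, and 6 and 1 at 72 h. Of all loci 15.8%, 25%, 36.6% and 38.5% were called at these times. Leaving out 2 h replicate 2 gave the same counts, with 19.1%, 40.6%, 49.1% and 51.2% of loci called, and at 2 h moved the list median from 1.04 to 0.49. RD29B, EM1 and EM6, markers of ABA response and late embryogenesis, had the largest rises, RD29B from 3.08 to 10.24 at 2 h (7.16 ± 0.20). EM1 rose by 6.33 and EM6 by 5.15 at 2 h, and both differences stayed at or above 5.09 later. The fall at each time was the ABA receptor gene PYL11, at -1.39 ± 0.41 at 2 h and -2.46 ± 0.41 at 12 h, named after its values were seen.

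**Figure D4:**
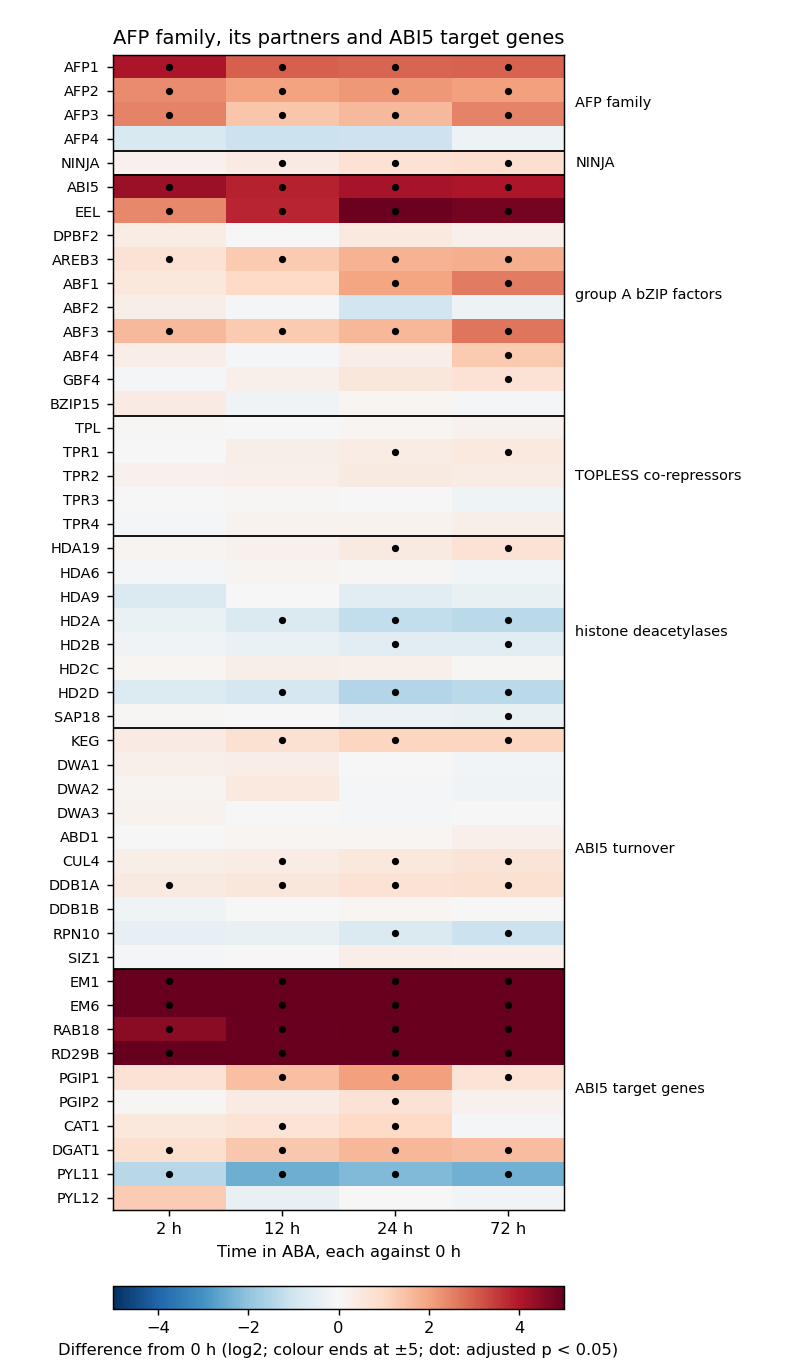
Differences from 0 h (log2, colour, ending at ±5) of the AFP genes, NINJA and 5 lists at 2, 12, 24 and 72 h, with a dot where adjusted p was under 0.05. Strong red is seen for ABI5, EEL, EM1, EM6, RAB18 and RD29B. AFP1 lies between 2.90 and 4.09, and AFP2 and AFP3 are paler, between 1.38 and 2.49. Rows for TOPLESS genes are pale, and TPR1 alone of these has dots.

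Genes were ranked by their likeness to each family member as Pearson r over the 15 arrays, among loci whose time means spanned at least 1 (7950 candidates for each). Arrays of 1 time share their treatment, so these values describe shape only. AFP1 was most like AT1G24580 (r = 0.980), AT3G48510 (0.975), the peroxisomal protease gene LON2 (0.971), AT5G17850 (0.970) and AFP2 itself (0.964). AFP2 was most like LON2 (0.977) and LTI78, also named RD29A, an ABA and cold marker (0.977), before AT1G78070 (0.976), AT3G51750 (0.975) and AT1G21790 (0.974). For AFP3 the order was the sucrose phosphate synthase gene SPS2F (0.926), COR413-PM1 (0.919), AT5G17850 (0.914), AT3G57010 (0.913) and AFP1 (0.907). SPS2F, chosen for this likeness, stood at 2.09, 0.74, 1.37 and 2.41 above 0 h at the 4 times.

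AFP4 was most like RCI2B (r = 0.954), for a small membrane protein known from cold responses, which stood at -1.33, -2.50, -2.36 and -0.66 against 0 h. Next came AT5G19250 (0.922), the blue light receptor gene CRY1 (0.918), the wax synthesis gene CER1 (0.908) and AT3G02900 (0.892). Without 2 h replicate 2, RCI2B kept the first rank (r = 0.942) and CRY1 dropped to rank 51 (r = 0.819). Within the family r over the 15 arrays was 0.964 for AFP1 and AFP2, 0.907 for AFP1 and AFP3, and 0.881 for AFP2 and AFP3. For AFP4 with AFP1, AFP2 and AFP3 it was -0.15, -0.20 and 0.06, or -0.14, -0.30 and 0.08 without 2 h replicate 2. Over the 5 time means, which include that array, AFP4 had r of -0.69, -0.74 and -0.37 with these genes. With ABI5, r over the 15 arrays was 0.928 for AFP1, 0.966 for AFP2, 0.842 for AFP3 and -0.39 for AFP4.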

How the data were processed

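The deposited matrix holds log2 values that the authors made with RMA, per the submitters' processing notes. Not given in the sources used here are its version, the array, the probe set definition and the build. The number of arrays limits the precision. Of 35986 probe sets, the one with the highest mean over 15 arrays was kept per locus, leaving 27981 loci. Symbols came from the RefSeq table for TAIR10.1, which held 27241 of them.

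A single linear model (limma 3.58.1, R 4.3.3, with eBayes moderation) took a mean for each time from the 15 arrays together. Tests were two-sided, adjusted by Benjamini and Hochberg over all loci and called at adjusted p under 0.05. P-values measure the spread between pools. Pairs of family members were compared by exact permutation. The code was tested on simulated data. Family, lists, tests and alternatives were chosen with earlier results of these data known.

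Named genes were the family and NINJA at every time, the 3 members per list with the largest called difference, and the 5 loci most like each family member. Alternatives were a replicate block, repeated quantile normalization, median centring, leaving out the lowest 25% of loci, an intensity trend, array weights, only the arrays compared, every probe set, adjusted p under 0.01 and leaving out each array.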

Additional observations from a re-analysis of the deposited data

How the results depend on the processing

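The rises of AFP1, AFP2 and AFP3 against 0 h kept their direction and their call under every alternative run. Other results moved, mostly with 2 h replicate 2, to which array weights gave 0.0408. Where an array was left out, its time was assumed to vary like the others. With array weights AFP4 was called at 12 h (-1.08) and 24 h (-1.07) and over the course (F of 17.26 against 1.34), so that 1 family member fell at each of those times, as also with only the 6 arrays (-1.06 and -1.04). Weights gave AFP4 0.32 at 2 h, and they also called AFP1 from 2 h to 12 h (-1.66), AFP2 from 2 h to 12, 24 and 72 h (-0.69, -0.48 and -0.63), AFP3 from 2 h to 12 h and 24 h (-1.55 and -1.5) and from 24 h to 72 h (1.02), and AFP4 from 2 h to 12 h and 24 h (-1.40 and -1.39) and from 12 h and 24 h to 72 h (0.90 and 0.88), with AFP4 from 2 h to 72 h at -0.51. Only the 6 arrays compared called the steps to 72 h of AFP3 from 24 h (0.87) and of AFP4 from 12 h and 24 h (0.79 and 0.77), and lost AFP1 from 2 h to 24 h and 72 h (-1.19 and -1.15). From 2 h to 12 h, AFP1 and AFP3 were called on repeating quantile normalization (-1.20 and -1.18) and with median centring (-1.27 and -1.28), AFP3 also without the lowest loci or with a trend (-1.11 in both). AFP3 from 2 h to 24 h was called with the first pair (-0.92 and -0.97), and its other probe set gave 0.20 from 2 h to 72 h. The cause of these changes was not tested.

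Leaving out each array gave these ranges. For AFP1 they were -1.68 to -0.76 from 2 h to 12 h, -1.76 to -0.84 to 24 h, -1.73 to -0.81 to 72 h, -0.20 to 0.0442 from 12 h to 24 h and -0.0902 to 0.15 from 24 h to 72 h. AFP2 from 2 h gave -0.68 to -0.0937 at 12 h, -0.50 to 0.0926 at 24 h and -0.62 to -0.0297 at 72 h. AFP3 from 2 h gave -1.59 to -0.83, -1.35 to -0.60 and -0.48 to 0.27, and to 72 h it gave 1.06 to 1.16 from 12 h and 0.75 to 1.11 from 24 h. AFP4 against 0 h gave -1.39 to 0.25 at 2 h, -1.18 to -0.89 at 12 h and -1.15 to -0.87 at 24 h, with 0 to 1 fall counted at 12 h and 24 h. AFP4 from 2 h gave -1.30 to 0.33, -1.28 to 0.35 and -0.52 to 1.12, from 12 h to 24 h -0.12 to 0.14, and to 72 h 0.65 to 0.91 from 12 h and 0.67 to 0.88 from 24 h. Its F ranged from 0.876 to 18.14.

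Loci called at 2 h numbered 4433, or 2992 to 7086 on leaving out an array (7086 without 2 h replicate 1 and 6805 without 2 h replicate 3), 1276 with only the 6 arrays and 2542 at adjusted p under 0.01. The 7006 at 12 h became 5316 to 11351 (the latter without 2 h replicate 2), 11400, 4514 and, with weights, 13288. The 10230 at 24 h became 15458 with weights. Same-numbered arrays of different times deviated together in only 11 of 30 cases (r over 0.1, range -0.17 to 0.27). The samples were therefore not treated as paired by number, though weak correlations cannot exclude a pairing. The replicate block called 4417 loci at 2 h, 6847 at 12 h, 10125 at 24 h and 10654 at 72 h, and changed no call of a family member.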

Other observations

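Replicate 2 of 2 h differed from the mean of the other 2 h arrays in both directions among the group A bZIP factors. It was lower for ABF3 (-2.07) and ABF2 (-1.81) and higher for ABF1 (1.89), while ABI5 was at 0.00. The family's 4 genes were all lower, where the median of all loci was 0.23, and NINJA, at 0.24, lay near that median. AFP2 and AFP3 lay within the 5th to 95th percentile of loci (-1.51 to 1.54). The share of all loci that were lower on that array was not computed.

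The rank order of the arrays gave a different set of like genes for part of the family. Of the 5 loci most like each member by Pearson r, the 5 by Spearman rho shared 0 for AFP1, 0 for AFP2, 4 for AFP3 and 2 for AFP4. Without 2 h replicate 2 the lists by Pearson r shared 4, 1, 1 and 2 of 5.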
